A study of Arabidopsis thaliana with 8 samples.

Results

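The 41 genes described here encode the linker histone H1 and the core histones H2A, H2B, H3 and H4 of *Arabidopsis thaliana*, and they were followed among the 37329 genes of each deposited expression table. The members were fixed as a list of gene identifiers of the histone families, a rule that uses no expression value, although the list was drawn up with earlier results of these data known. The study asked how RNA polymerase IV (Pol IV), whose largest subunit is encoded by *NRPD1*, acts from the mother and from the father on gene expression in endosperm, the tissue that nourishes the embryo in the seed. Endosperm was dissected from F1 seeds 7 days after pollination and its polyA RNA was sequenced, and seeds from several crosses went into each sample. WT endosperm came from L*er* females pollinated by Col-0 males (2 samples), mat *nrpd1*+/- endosperm (3 samples) had an L*er* *nrpd1*-/- mother and a WT Col-0 father, and *nrpd1*-/- endosperm (3 samples) had *nrpd1*-/- parents of the same accessions. The mutant allele was *nrpd1a-4*, a T-DNA insertion made in Col-0 and introgressed repeatedly into L*er*, so 12 regions of Col-0 sequence remained in the L*er* mutant mothers, and 10 of the 41 members lie in them. The deposited tables hold 1 pooled FPKM value (fragments per kilobase of transcript, scaled to the size of the library) per genotype, so the values below carry no replicate error, no difference could be tested, and the depth of each sample is unknown from the files.

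Histones package DNA into nucleosomes, in which pairs of H2A, H2B, H3 and H4 form the core and H1 binds the linker DNA. Canonical H2A, H2B, H3.1 and H4 are made in bulk during DNA replication, whereas replacement variants such as H3.3 and H2A.Z are deposited outside S phase, at transcribed genes and around gene starts. H2A.X is phosphorylated at DNA breaks, H2A.W is typical of plant heterochromatin, and endosperm stops its nuclear divisions and cellularizes as the seed grows.

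The sequences upstream of the members hold short elements long known from plant histone genes. The 250 bases before the gene start are shown for the H3.1, H4 and H3.3 genes with the largest WT FPKM in the table for mat *nrpd1*+/-. No window was chosen by its fold. In the WT column for *nrpd1*-/-, AT1G07660 was instead the leading H4 gene. The windows were read from the TAIR10.1 genome at the RefSeq gene starts, 5′ to 3′ on the strand of the gene. Capitals mark the octamer CGCGGATC on either strand. The window of AT1G09200 is chr1:2972335-2972584 on the minus strand, that of AT5G59690 is chr5:24051224-24051473 on the plus strand, and that of AT4G40040 is chr4:18558946-18559195 on the minus strand.
AT1G09200 (H3.1): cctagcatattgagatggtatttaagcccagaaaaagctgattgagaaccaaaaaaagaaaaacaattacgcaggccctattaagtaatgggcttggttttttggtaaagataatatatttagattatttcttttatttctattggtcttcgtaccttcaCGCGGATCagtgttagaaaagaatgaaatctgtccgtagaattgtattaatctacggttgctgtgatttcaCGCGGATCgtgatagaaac
AT5G59690 (H4): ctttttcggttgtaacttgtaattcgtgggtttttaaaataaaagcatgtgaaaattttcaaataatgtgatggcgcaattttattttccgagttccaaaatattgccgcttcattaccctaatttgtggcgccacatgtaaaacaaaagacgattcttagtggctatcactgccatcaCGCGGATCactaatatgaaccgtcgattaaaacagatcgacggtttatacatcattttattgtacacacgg
AT4G40040 (H3.3): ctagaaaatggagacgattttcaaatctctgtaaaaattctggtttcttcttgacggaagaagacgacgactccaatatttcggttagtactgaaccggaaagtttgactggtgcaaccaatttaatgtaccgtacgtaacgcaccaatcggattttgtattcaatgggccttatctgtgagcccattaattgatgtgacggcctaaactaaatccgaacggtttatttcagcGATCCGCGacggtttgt
The H3.1 window holds 2 octamers and the H4 and H3.3 windows hold 1 each, the last in reverse orientation (GATCCGCG).

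Over all members, the octamer was found on either strand in 10 of 41 windows, or 24.4%, against 0.135% of the windows of the same length at 27443 nuclear protein-coding genes. It stood in 3 of 5 H3.1 genes, 2 of 8 H4 genes, 2 of 4 canonical H2A genes, and 1 gene each of H2A.W, H3.3 and H1, and in none of the 10 H2B genes. The hexamer ACGTCA (either strand, TGACGT in reverse, no match overlapping an octamer in these windows) was instead found in 8 of the 10 H2B windows, 2 H3.1 windows and 1 H3.3 window, so in 26.8% of members against 7.69% of all windows. Of the E2F-type elements, TTTCCCGC was in none of the members' windows and in 0.619% of all, and TTTGGCGC was in 2 H4 windows (AT3G45930 and AT3G46320) and in 0.361% of all. A match describes these letters only and does not show that a factor binds there.

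**Figure D1:**
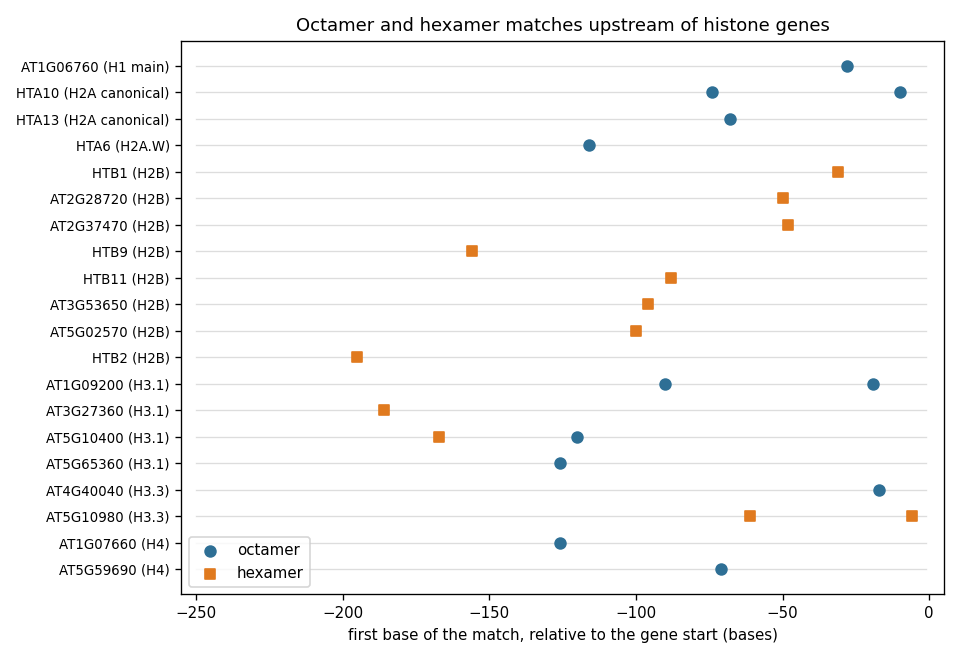
Position of each octamer (blue circles) and hexamer (orange squares) match upstream of the 20 histone genes that hold one, in bases from the gene start, with the histone class in brackets. Octamers lay between -126 and -10 and the H2B windows hold hexamers only.

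The labelled tissue was checked first. The endosperm markers *SUC5*, a sucrose transporter, and *ZOU* (*RGE1*), a regulator of endosperm breakdown, were at 133 to 228 FPKM and 43.2 to 68.2 FPKM in WT and both mutants, and both lie inside regions of residual Col-0 sequence. The other endosperm markers did not hold steady or were scarce. *YUC10*, an auxin biosynthesis gene, was at 6.17 FPKM in WT and 66.2 FPKM in mat *nrpd1*+/-, and at 12.9 and 79.3 FPKM for *nrpd1*-/-. *PHE1* was at 1.51 and 0.11 FPKM and at 0 and 0.04 FPKM, and *FIS2* at 1.10 and 0.64 FPKM and at 2.35 and 0.22 FPKM. *FWA*, *MEA*, *AGL62*, *IKU2* and *MINI3* were at 0.498 FPKM or less in every column. The summed level of the 8 embryo markers was 12.0 FPKM in WT and 25.7 FPKM in mat *nrpd1*+/-, and 20.9 and 37.2 FPKM for *nrpd1*-/-, carried by *ATML1* and *SCR*. Of the other embryo markers, *WOX2* and *STM* were 2-fold lower in mat *nrpd1*+/-, from 1.23 to 0.50 FPKM and from 1.76 to 0.25 FPKM, and below 1 FPKM in the *nrpd1*-/- table, while *DRN*, *WUS*, *PLT2* and *CUC2* were at 0.346 FPKM or less. Seed coat markers were present, 7 of 8 at 1 FPKM or more in every column, and summed to 176 FPKM in WT and 201 FPKM in mat *nrpd1*+/-, and to 246 and 199 FPKM for *nrpd1*-/-. The sum and the single markers differed in *nrpd1*-/-, where *BAN*, inside a region of residual Col-0 sequence, went from 8.84 to 30.8 FPKM and *MYB5* from 2.81 to 10.2 FPKM. With the regions included, 2 of the 7 that passed were 2-fold higher and none was 2-fold lower, beside 12.2% and 10.7% of all genes. *GL2* and *MUM4*, also inside regions, went from 30.5 to 17.2 FPKM and from 93.9 to 47.7 FPKM. The paper reported that a tissue enrichment test of its mRNA libraries gave no sign of seed coat contamination. The part of the seed coat markers in the results was not tested. In these bulk samples, fewer cells of a type cannot be told apart from less RNA per cell. *NRPD1* itself lies in a region of residual Col-0 sequence and was at 2.28 FPKM in WT and 2.08 FPKM in mat *nrpd1*+/-, and at 4.34 and 2.08 FPKM for *nrpd1*-/-, and a value over the whole gene does not show whether the transcript is intact. Each table was scaled on its own and does not name its WT libraries, and the read length of the libraries differed between genotypes.

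In WT the histone genes spanned a wide range of levels. The H3.3 gene AT4G40040 was the most abundant member, at 1395 FPKM in the table for mat *nrpd1*+/- and 508 FPKM in that for *nrpd1*-/-. AT5G10980, also H3.3, followed in the first table at 683 FPKM, and *HTA9*, an H2A.Z gene, in the second at 281 FPKM. At the low end stood *HIS1-3*, a linker histone known to be induced by drought, at 0.10 and 0.06 FPKM. The H2B gene AT5G02570 was listed at 0 in all columns, but it lies on the opposite strand wholly inside *HTA12* (chr5:575225-577216), and the library kit is not stated to mark strand, so its reads could not be separated from those of *HTA12*. Apart from these, 39 members were at 4.35 FPKM or more in WT in both tables. FPKM is scaled to transcript length, but folds still differed with length, as given below, and the order of members differed between the WT columns. Levels of genes of unlike length are therefore compared with caution. H4 copies also share sequence: from 71.5% to 100% of the 50-base stretches of an H4 transcript occur only once in the genome (median 86.1%), against at least 97.6% in the other classes. Values of single H4 copies are thus uncertain, and class sums are also given.

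**Figure D2:**
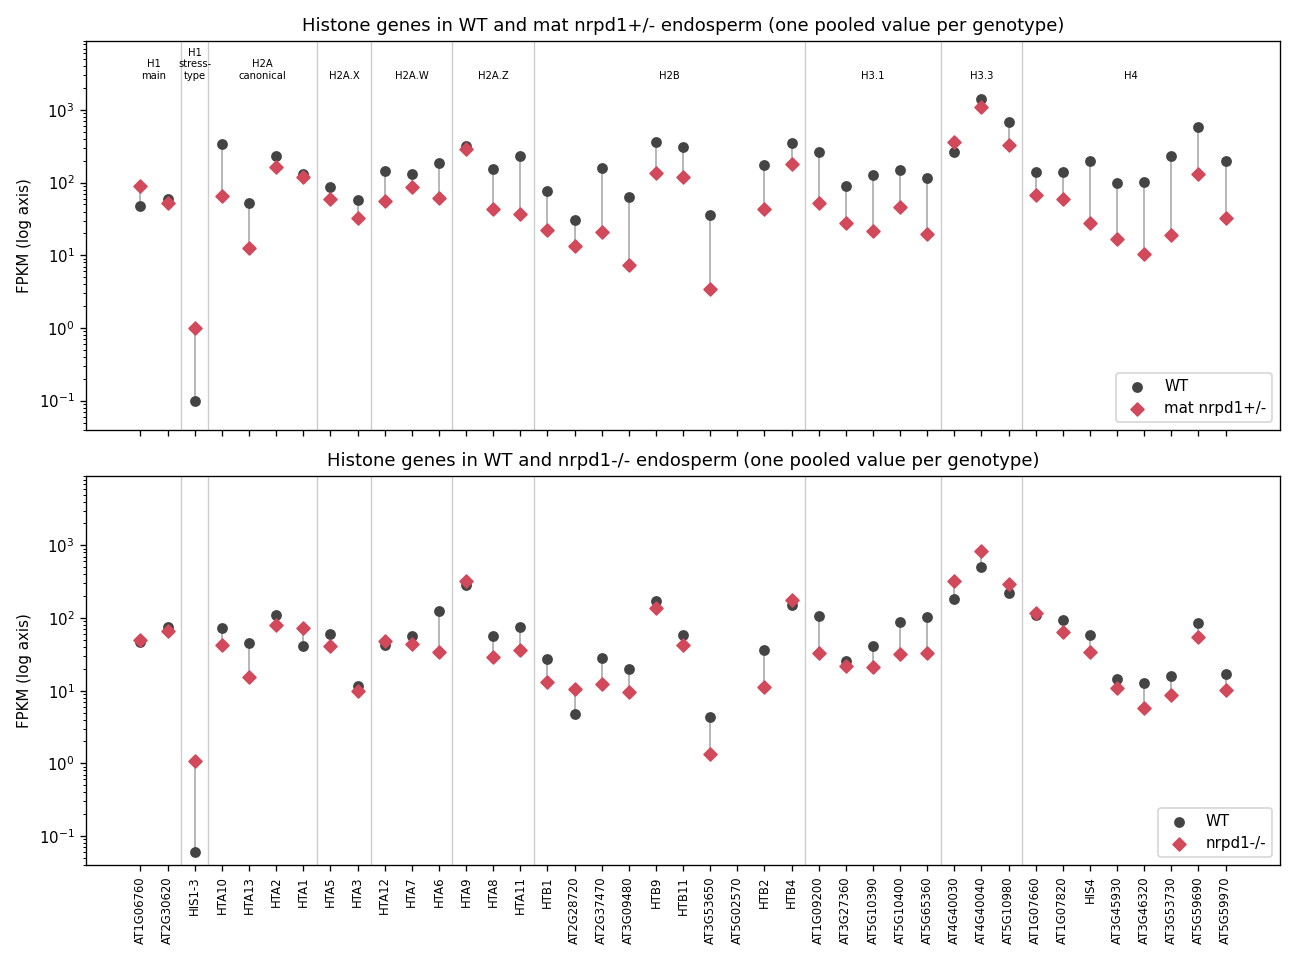
FPKM of each histone gene (log axis) in WT (grey circles) and mutant (red diamonds) endosperm, above for mat nrpd1+/- and below for nrpd1-/-, grouped by class; each point is the authors' single pooled value. AT5G02570 is listed at 0 and has no point, and the WT to mutant drop is seen across H2B, H3.1 and H4 in the upper plot.

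In mat *nrpd1*+/- endosperm, most histone genes were lower than in the WT column of the same table. Among the classes with 3 or more genes outside the regions, H4, H3.1 and H2B had the lowest medians in that comparison. Of the 31 members outside the regions of residual Col-0 sequence, 30 reached 1 FPKM in either genotype, 21 of them were at least 2-fold lower and none was 2-fold higher, on the scale log2((mutant + 0.1)/(WT + 0.1)) used for all folds. Of all genes passing the same filter, 17.4% were 2-fold lower and 14.2% were 2-fold higher. The median log2 fold of the members was -1.63, against -0.09 over all genes. However, 22 of the 30 members have transcripts of up to 1000 nt, and 43.3% of all genes of that length were 2-fold lower. Against the WT column of the other table, with centred folds, 7 of 30 members were 2-fold lower (median -0.040), beside 11.0% of all genes. Among the members inside the regions, 7 of the 9 that passed were 2-fold lower, where 18.1% of all genes inside were.

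In *nrpd1*-/- endosperm, set against the WT column of its own table, fewer members were 2-fold lower, an order that turned when the WT columns were exchanged (7 of 30 in mat *nrpd1*+/-, beside 11.0% of all genes, and 21 of 31 in *nrpd1*-/-, beside 22.5%). Here 31 members passed, 10 were 2-fold lower and 2 were 2-fold higher, beside 10.9% lower and 11.6% higher among all genes. The median log2 fold was -0.55, against -0.01 over all genes. Inside the regions, 2 of 9 members were 2-fold lower, beside 9.92% of all genes there. The 10 members that were 2-fold lower in *nrpd1*-/- come from H2B (4 genes), H3.1 (2), H4, canonical H2A, H2A.W and H2A.Z. Against the WT of each table, all 10 were also 2-fold lower in mat *nrpd1*+/-, where 21 of 30 members were. The same overlap over all genes was not counted, so this overlap is not read as a result about the members. Of the members outside the regions, 6 of 8 with an octamer in the upstream window and 15 of 22 without one were 2-fold lower in mat *nrpd1*+/-, and 4 of 8 and 6 of 23 in *nrpd1*-/-, so low folds were found with and without it. For the hexamer, 7 of 7 members with it and 14 of 23 without it were 2-fold lower in mat *nrpd1*+/-, beside 17.4% of all genes. In *nrpd1*-/- 3 of 7 and 7 of 24 were, beside 10.9%. The part of either element in the folds was not tested. Both tables have a WT column, and those columns differ, as given below.

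**Figure D3:**
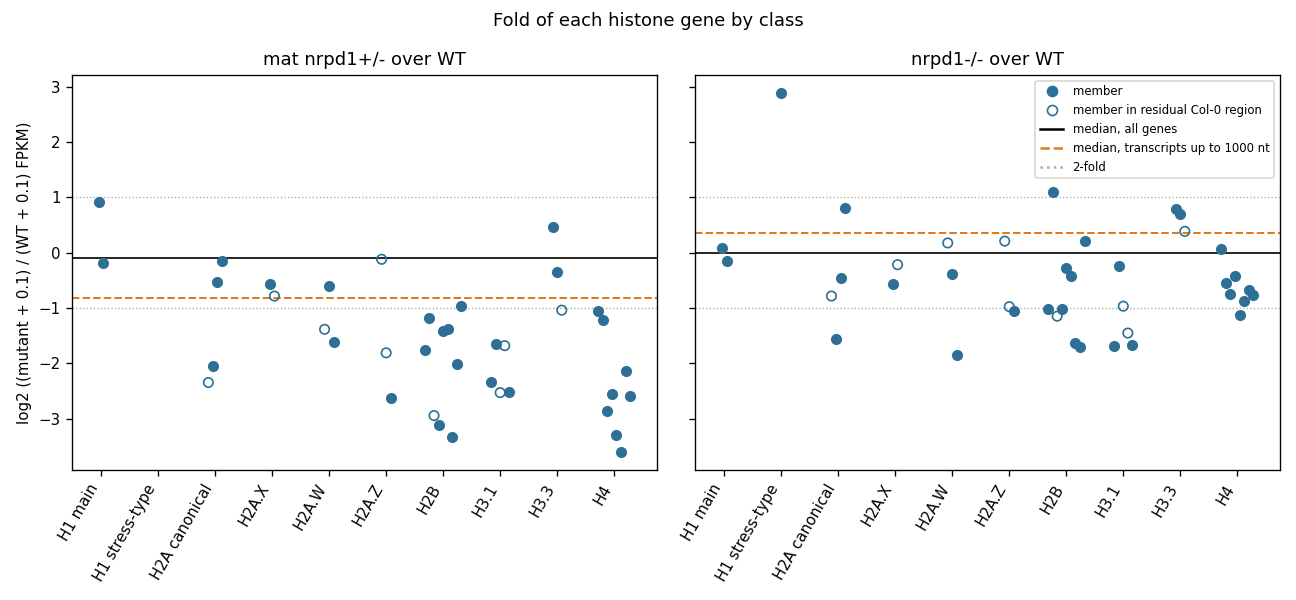
log2 fold of every histone gene at 1 FPKM or more over WT, by class, for mat nrpd1+/- (left) and nrpd1-/- (right); open circles lie in residual Col-0 regions, the black line is the median of all genes and the dashed line that of genes with transcripts up to 1000 nt. H4, H2B and H3.1 lie below both lines on the left, and H3.3 outside the regions lies above the dashed line on either side. The 2 H3.3 genes outside the regions have transcripts of 1036 and 1289 nt, so the dashed line is not that of their length class.

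H4, the core histone with a single protein form in Arabidopsis, had the lowest class median of those with more than 1 gene outside the regions in mat *nrpd1*+/- against its own WT, but not against the WT column of the other table, where the H4 median was -0.15. All 8 H4 genes were 2-fold lower, with log2 folds from -3.60 to -1.05 and a median of -2.57. The most abundant copy, AT5G59690 (chr5:24051474-24052218), went from 588 to 133 FPKM, or 22.6% of WT. AT3G53730 had the deepest fold of all members, from 230 to 18.9 FPKM, or 8.20% of WT. AT1G07660 and AT1G07820, copies that share sequence with each other, moved least, from 141 to 67.9 FPKM (48.3% of WT) and from 140 to 59.9 FPKM (42.9%). The remaining copies lay between these extremes. *HIS4* went from 199 to 27.5 FPKM, AT5G59970 from 196 to 32.7 FPKM, AT3G45930 from 99.2 to 16.8 FPKM and AT3G46320 from 103 to 10.4 FPKM, and none of them stood above 16.9% of WT. Summed over the 8 copies, H4 went from 1695 FPKM to 21.7% of that value, a measure less dependent on how shared reads were split, though not free of it, since the copies differ in length from 644 to 1131 nt.

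In *nrpd1*-/- the H4 genes stood closer to the WT column of their own table, and farther from that of the other table (median -3.10). Only AT3G46320 was 2-fold lower, from 12.8 to 5.81 FPKM, and the class median was -0.72. AT5G59690 was at 86.4 FPKM in WT and 54.0 FPKM in *nrpd1*-/-, or 62.4% of WT, and *HIS4* at 57.5 and 34.1 FPKM. AT5G59970, AT3G53730 and AT3G45930 were at 58.8%, 54.4% and 74.4% of WT, and AT1G07820 was at 68.4%. AT1G07660, at 111 and 117 FPKM (105% of WT), was the only H4 copy not below WT, and H4 as a whole was at 74.4%. In both WT and mutant of this table AT1G07660 was the leading H4 copy, with 27.1% and 38.4% of H4 FPKM, where AT5G59690 led in the table for mat *nrpd1*+/- with 34.7% and 36.3%.

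H3.1, the H3 form deposited at replication, was lower in both genotypes. In mat *nrpd1*+/- the 3 H3.1 genes outside the regions were all 2-fold lower: AT1G09200 went from 264 to 52.2 FPKM (19.8% of WT), AT5G65360 from 114 to 19.9 FPKM (17.5%), and AT3G27360 from 88.9 to 28.2 FPKM (31.8%). In *nrpd1*-/- AT1G09200 went from 106 to 32.9 FPKM (31.0% of WT) and AT5G65360 from 103 to 32.6 FPKM (31.6%), whereas AT3G27360 was at 25.5 and 21.6 FPKM (84.5%). AT3G27360 shares a transcribed region with a neighbouring gene on the same strand, so its value may include reads of that gene. The deposited locus is also wider than the RefSeq gene for *HTB9*, *HTA13*, *HTA9*, *HTA3*, AT1G06760 and AT2G30620. Whether their values include reads of other genes was not checked. The neighbouring pair AT5G10390 and AT5G10400 lies inside a region of residual Col-0 sequence and was at 17.3% and 31.2% of WT in mat *nrpd1*+/- and at 51.1% and 36.5% in *nrpd1*-/-. H3.1 was the only core class whose median stood below -1 outside the regions in both genotypes with more than 2 genes, at -2.34 and -1.66.

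Against the WT of each table, most H2B genes were lower in mat *nrpd1*+/- and varied in *nrpd1*-/-. This order turned with the WT columns exchanged and folds centred. Of the 8 genes outside the regions, 1 was then 2-fold lower and 1 higher in mat *nrpd1*+/- (median -0.11), beside 11.0% and 15.5% of all genes. In *nrpd1*-/- 7 of 8 were lower and none higher (median -2.39), beside 22.5% and 19.9%. The values below are against the WT of each table. In mat *nrpd1*+/-, 7 of the 8 H2B genes outside the regions were 2-fold lower, with a median log2 fold of -1.58, and the remaining one, *HTB4*, was at 51.5% of WT. AT3G53650 (35.6 to 3.45 FPKM, 9.68% of WT) and AT3G09480 (63.5 to 7.28 FPKM, 11.5%) had the deepest folds. The most abundant H2B gene in WT, *HTB9*, went from 362 to 136 FPKM, and *HTB11* from 306 to 118 FPKM. *HTB2* went from 176 to 43.5 FPKM (24.8% of WT) and *HTB1* from 75.6 to 22.4 FPKM (29.6%). The depth of the fold thus differed between copies. The abundant *HTB9* and *HTB11* were at 37.7% and 38.6% of WT, and the scarcer AT2G28720 was at 44.1%. In *nrpd1*-/- 4 were 2-fold lower, namely *HTB1*, *HTB2*, AT3G09480 and AT3G53650, which lay between 30.6% and 49.4% of WT. *HTB2* was at 36.7 FPKM in WT and 11.2 FPKM in *nrpd1*-/-, *HTB1* at 26.9 and 13.3 FPKM, AT3G09480 at 19.7 and 9.67 FPKM, and AT3G53650 at 4.35 and 1.33 FPKM. *HTB11*, at 58.0 and 43.2 FPKM, stayed within 2-fold. *HTB9* was at 82.4% and *HTB4* at 116% of WT there. *HTB4* thus became the leading H2B transcript in both mutants, with 32.9% of H2B FPKM in mat *nrpd1*+/- and 42.3% in *nrpd1*-/-, where *HTB9* led in both WT columns. AT2G28720 took opposite directions, from 30.9 to 13.6 FPKM in mat *nrpd1*+/- and from 4.83 to 10.4 FPKM in *nrpd1*-/-. Inside the regions, AT2G37470 went from 160 to 20.7 FPKM in mat *nrpd1*+/- (13.0% of WT) and from 27.9 to 12.5 FPKM in *nrpd1*-/- (45.0%).

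Within H2A, single genes of each variant differed from their class mates. Of the canonical H2A genes, *HTA13* was at 24.2% of WT in mat *nrpd1*+/- (51.9 to 12.5 FPKM) and 33.8% in *nrpd1*-/- (45.9 to 15.5 FPKM). *HTA2*, at 236 FPKM in WT in the first table, was at 69.2% and 73.0% of WT, and *HTA1* (*RAT5*), named for its requirement in Agrobacterium transformation, was at 90.5% and 175%. *HTA10*, inside a region, went from 337 to 66.3 FPKM in mat *nrpd1*+/- and from 72.8 to 42.3 FPKM in *nrpd1*-/-. Canonical H2A copies thus differed among themselves, with *HTA13* and *HTA10* the lowest in both comparisons and *HTA1* above WT in *nrpd1*-/-. Of the heterochromatic H2A.W genes, *HTA6* went from 189 to 61.8 FPKM in mat *nrpd1*+/- (32.7% of WT) and from 124 to 34.6 FPKM in *nrpd1*-/- (27.9%), the lowest log2 fold of any member in the latter at -1.84. *HTA7* was at 65.5% and 76.2%, and *HTA12*, inside a region, at 38.3% and 113%. The H2A.X gene *HTA5* was at nearly the same share of WT in both, 67.3% and 67.4%, and *HTA3*, inside a region, was at 58.1% and 86.0%.

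The H2A.Z genes, which encode a replacement variant found at gene starts, did not move together. *HTA11* went from 231 to 37.4 FPKM in mat *nrpd1*+/- (16.2% of WT) and from 75.3 to 36.4 FPKM in *nrpd1*-/- (48.4%). *HTA9*, the most abundant H2A.Z gene, was at 320 and 295 FPKM (92.2%) and at 281 and 325 FPKM (116%). *HTA8* went from 153 to 43.6 FPKM (28.5%) and from 56.6 to 28.8 FPKM (50.8%). *HTA8* and *HTA9* lie inside regions of residual Col-0 sequence. *HTA9* made up 45.5% and 68.0% of H2A.Z FPKM in the WT columns and 78.4% and 83.3% in mat *nrpd1*+/- and *nrpd1*-/-, so the H2A.Z transcripts of both mutants came mostly from this 1 gene.

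H3.3, the replacement form of H3, stood apart from H3.1. AT4G40040 was at 1395 FPKM in WT and 1103 FPKM in mat *nrpd1*+/- (79.0% of WT), and at 508 and 830 FPKM for *nrpd1*-/- (163%). Its neighbour AT4G40030 was at 261 and 362 FPKM (139%) and at 184 and 319 FPKM (174%). AT5G10980, inside a region, was at 683 and 333 FPKM (48.7%) and at 223 and 291 FPKM (131%). Outside the regions, H3.3 as a class was at 88.4% of WT in mat *nrpd1*+/- and 166% in *nrpd1*-/-, while H3.1 was at 21.5% and 37.1%.

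The share of H3 transcripts that encode H3.3 is a ratio within 1 column and does not depend on how a table was scaled. The 2 forms differ in transcript length, from 704 to 833 nt for H3.1 and from 818 to 1289 nt for H3.3. The part of length in this share was not tested. H3.3 made up 75.9% of H3 FPKM in WT and 91.4% in mat *nrpd1*+/-, and 71.5% in WT and 91.1% in *nrpd1*-/-. The WT column of the third deposited table, which belongs to a comparison not analysed here, gave 76.0%. With the members inside the regions left out, the shares were 78.0% and 93.6%, and 74.7% and 93.0%. Since the WT values of that table keep a constant ratio to those used for mat *nrpd1*+/-, this share repeats the first and is no further WT value. The WT columns lay below both mutants, and the mutants lay within 1 percentage point of each other. For H2A.Z, the corresponding share of H2A FPKM was 34.0% in WT and 36.4% in mat *nrpd1*+/-, and 42.1% and 50.1% for *nrpd1*-/-, but with the members inside the regions left out it went the other way, from 21.8% to 6.95% and from 14.6% to 11.2%, since only *HTA11* then remains.

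**Figure D4:**
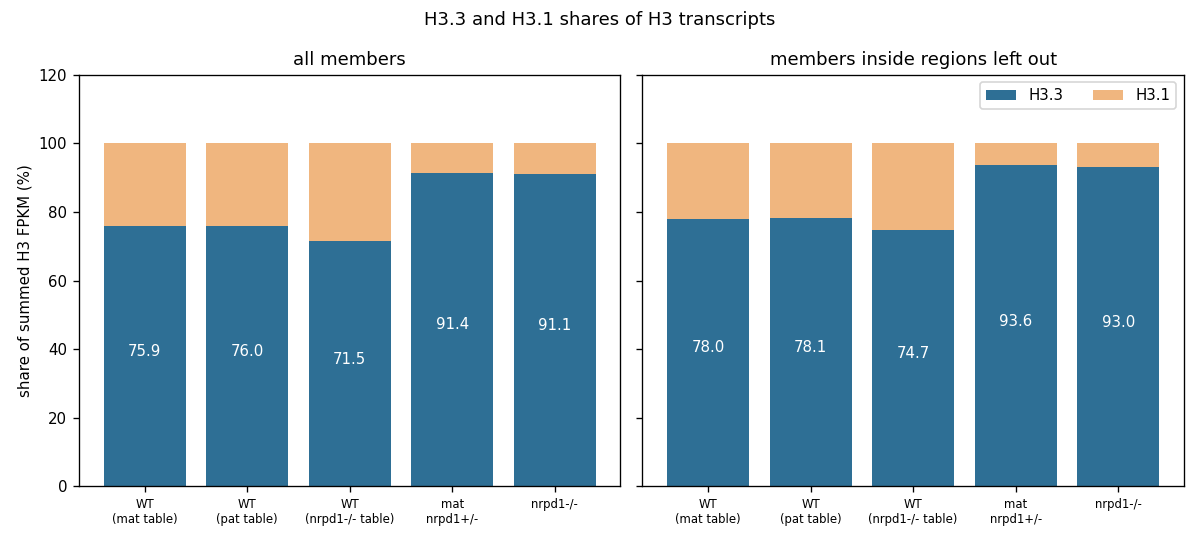
Share of summed H3 FPKM from the H3.3 genes (blue, value printed in %) and the H3.1 genes (orange) in the 3 WT columns and the 2 mutant columns, with all members on the left and without those in residual Col-0 regions on the right. The H3.3 share is 71.5% to 76.0% in WT and 91.1% to 91.4% in the mutants on the left.

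The main linker histones stayed within 2-fold of WT on the scale used here, 1 of them narrowly. AT2G30620 was at 59.0 and 51.7 FPKM in WT and mat *nrpd1*+/- and at 74.1 and 67.2 FPKM in WT and *nrpd1*-/-. AT1G06760 was at 47.6 and 90.3 FPKM in the first comparison, or 190% of WT (log2 fold 0.92), and at 46.8 and 49.5 FPKM in the second. With folds centred on the median of all genes (-0.09), it was 2-fold higher in mat *nrpd1*+/-. *HIS1-3* was higher in both mutants, at 0.99 FPKM in mat *nrpd1*+/- and 1.09 FPKM in *nrpd1*-/-. It passed the filter in *nrpd1*-/- only, through the mutant value, and was among the least abundant members in every column.

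Transcript length went with the fold in mat *nrpd1*+/-. Most histone transcripts are short, and of genes with a longest RefSeq transcript of up to 1000 nt, 43.3% were 2-fold lower in mat *nrpd1*+/- and the median log2 fold was -0.82, against 10.5% and 0.00 for genes with longer transcripts. Of the 22 members with such short transcripts, 19 were 2-fold lower, with a median of -2.03. Of the 8 members with longer transcripts, 2 were 2-fold lower, AT3G53730 and AT2G28720, and the others are both main H1 genes, *HTA5*, *HTB4* and both H3.3 genes outside the regions. In *nrpd1*-/- the short genes went the other way as a group, with a median of 0.35 and 13.3% of them 2-fold lower, against -0.06 and 8.50% for longer ones. The 23 short members had a median of -0.75 there and 10 of them were 2-fold lower, and none of the 8 longer members was. The part of transcript length in the member folds was not tested.

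The WT values of the histone genes were themselves unlike between the tables. Over 12672 genes outside the regions at 1 FPKM or more in both WT columns, the spread of the log2 ratio between the WT values used for *nrpd1*-/- and those used for mat *nrpd1*+/- was 1.21 (SD over genes), whereas the WT columns of the mat *nrpd1*+/- table and of the third table kept a constant ratio (SD of 0.0061 over 13614 genes). After centring on the median of all genes, 28 of the 30 members that passed in both comparisons had a lower WT value in the *nrpd1*-/- table, with a median of -1.35, and H4 reached -3.71 at AT3G53730. The mutant columns, centred in the same way, differed less, with a median of -0.49 over the same 30 members and -0.64 over H4, against -2.64 for H4 in WT. The log2 fold was lower in mat *nrpd1*+/- than in *nrpd1*-/- in 28 of the 30, including genes above WT in *nrpd1*-/-, and 27 of these also had the higher WT value in the mat *nrpd1*+/- table. The genotype and the WT libraries used cannot be told apart.

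**Figure D5:**
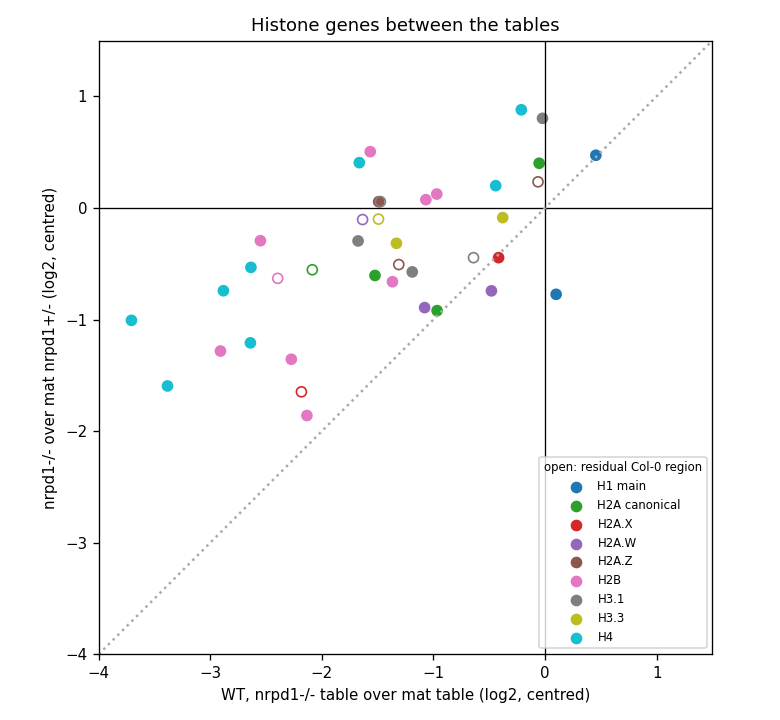
For each histone gene passing in both comparisons, the log2 ratio of the WT values of the nrpd1-/- and mat nrpd1+/- tables (horizontal) against that of the mutant values (vertical), each centred on the median of all genes; open circles lie in residual Col-0 regions and the dotted line marks equal ratios. Most genes lie left of 0 and above the dotted line, with H4 farthest to the left.

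Each mutant was therefore also set against the WT column of the other table, with folds centred on all genes, a choice made after the data were seen. Against that WT, 7 of 30 members were 2-fold lower in mat *nrpd1*+/- and 3 were higher, with a median of -0.040, beside 11.0% and 15.5% of all genes. For *nrpd1*-/-, 21 of 31 were 2-fold lower and 1 was higher, with a median of -1.59, beside 22.5% and 19.9% of all genes. The order of H3.1 and H3.3 stayed as before: in mat *nrpd1*+/- the medians were -1.12 for H3.1 and 0.95 for H3.3, and in *nrpd1*-/- they were -1.83 and -0.02. H4 did not keep its place, with a median of -0.15 in mat *nrpd1*+/- and -3.10 in *nrpd1*-/-. Neither did H2B, with medians of -0.11 and -2.39.

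The other genes of DNA replication and division were read from lists, all measured outside the regions unless stated. Of 10 S phase genes, 4 were 2-fold lower and none higher in mat *nrpd1*+/- (median -0.73), and 8 were lower and none higher in *nrpd1*-/- (median -1.32), beside the shares of all genes given above. *PCNA1*, the sliding clamp of DNA polymerase, went from 37.5 to 10.2 FPKM and from 19.2 to 5.33 FPKM, *PCNA2* from 33.8 to 12.1 FPKM and from 25.7 to 8.22 FPKM, and *TSO2*, a subunit of ribonucleotide reductase, from 44.1 to 11.6 FPKM and from 29.9 to 10.2 FPKM. *MCM2*, a part of the replicative helicase, was 2-fold lower in both as well. Of 8 mitotic genes, 4 and 7 were 2-fold lower, among them the cyclin gene *CYCB1;1* and the B-type kinase gene *CDKB1;1* in both genotypes. Against the WT of their own tables, these lists were lower in more genes in *nrpd1*-/- than in mat *nrpd1*+/-, which was not tested. The histone genes had the reverse order against the WT of their own tables. With the WT columns exchanged, 7 of 30 and 21 of 31 histone members were lower. The lists were not counted with the WT columns exchanged, so they cannot be compared with the histone genes in that setting.

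Of 16 genes that load and exchange histones, 1 was 2-fold lower and 1 higher in mat *nrpd1*+/- (median -0.22), and 2 were lower and none higher in *nrpd1*-/- (median -0.48), beside 17.4% lower and 14.2% higher, and 10.9% and 11.6%, of all genes. In *nrpd1*-/- the share lower was thus near that of all genes. The 1 gene lower in both was *DDM1* (*CHR1*), a remodeller of heterochromatin, from 6.92 to 2.93 FPKM and from 6.68 to 2.89 FPKM. Of the 7 other histone genes outside the regions that are not members, 3 passed in mat *nrpd1*+/- and 2 in *nrpd1*-/-, and *HTR11*, an H3 gene, was 2-fold lower in both, from 2.19 to 0.99 FPKM and from 1.79 to 0.61 FPKM.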

How the data were processed

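Polyadenylated RNA of endosperm was sequenced in 8 samples (2 WT, 3 mat *nrpd1*+/- and 3 *nrpd1*-/-). The authors trimmed reads with Trim Galore, aligned them to TAIR10 with TopHat and made FPKM values with Cuffdiff (2.2.1 in the submitters' processing notes), and each deposited FPKM is 1 pooled value per genotype. Columns of fold changes, test statistics, p-values and q-values from the authors' comparisons were not used. 1 value column, the mutant of the third table, was also not used because no sample given here belongs to it. Members and lists were chosen with earlier results of these data known. Members may all be named; other genes are named when 2-fold lower or higher in the same direction in both tables, and tissue markers, *HTR11* and *NRPD1* are given as checks.

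Folds were log2((mutant + 0.1)/(WT + 0.1)) for genes reaching 1 FPKM in either genotype that do not overlap the 12 deposited Col-0 regions, called at 2-fold, and no test was made. The code for the counts was run on simulated folds of known size, which does not measure how reliable the counts are in these data. Gene positions, symbols and sequences are from RefSeq (TAIR10.1, whose nuclear chromosomes carry the TAIR10 coordinates); all 41 members matched, 33 with the same start and end as in the files and 41 within the files' loci. Transcript length was found for 91.9% and 92.8% of the genes tested. Shared sequence was measured with 50-base stretches of each longest transcript. Alternatives changed the pseudocount, filter, fold threshold, regions and centring, or summed copies. Depth was unknown, so no counting error is given. Python 3.11.15, numpy 2.4.6, pandas 2.3.3 and matplotlib 3.10.9 were used.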

Additional observations from a re-analysis of the deposited data

Results flagged for a closer look

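The H2B gene AT2G28720 stood out because it lay past 2-fold in opposite directions in the 2 comparisons. Its log2 fold was -1.18 in mat *nrpd1*+/- and 1.09 in *nrpd1*-/-. In the first table it went from 30.9 to 13.6 FPKM and in the second from 4.83 to 10.4 FPKM, so the mutant values lay closer together than the WT values. The difference was not tested, since each genotype has 1 pooled value.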

How the results depend on the processing

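The pseudocount was set to 0.01 or 1 FPKM, the filter to 5 FPKM or none, the residual Col-0 regions were included, folds were centred on all genes, or the call was made at 1.5-fold. The number of members lower stayed within 1.5 times in both genotypes, and so did the medians. In mat *nrpd1*+/- it was 20 to 28, beside 11.5% to 28.9% of all genes, and the 28 were of 39 members with the regions included, beside 17.5%. In *nrpd1*-/- it was 8 to 14, beside 7.37% to 20% of all genes, and the 14 were of 31 members at 1.5-fold, beside 20%. The few members 2-fold higher moved more. In mat *nrpd1*+/- there was 1 with no filter, with centred folds or at 1.5-fold, against none in the report, and in *nrpd1*-/- there were 0 with a pseudocount of 1 FPKM, 1 with a filter at 5 FPKM and 5 at 1.5-fold, against 2. With the copies of a class summed first, the median over classes was -0.84 in mat *nrpd1*+/- and -0.33 in *nrpd1*-/-. 2 alternatives were added after the data were seen. With transcripts of up to 1000 nt only, 19 of 22 and 10 of 23 members were lower, beside 43.3% and 13.3% of all genes of that length. In this setting 0 and 1 were higher, where 299 of 2424 and 470 of 2098 such genes were. With the WT column of the other table and centred folds, 7 of 30 members were lower and 3 higher in mat *nrpd1*+/- (median -0.040), beside 11.0% and 15.5% of all genes. In *nrpd1*-/- 21 of 31 were lower and 1 higher (median -1.59), beside 22.5% and 19.9%. Which genotype shows the larger drop thus rests on the WT column used. No paired analysis was possible because the tables hold 1 pooled value per genotype, and for the same reason no replicate could be left out. Without read counts, how depth limits the low values could not be given.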
